A study of Mus musculus with 2 samples.

Results

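The 4 Id genes and the 3 genes of the E proteins were followed on arrays of mouse diaphragm muscle labelled RP58 wild type and RP58 knockout. The members were taken by name: every probe set that carried Id1, Id2, Id3, Id4, Tcf3, Tcf4 or Tcf12 as its single gene symbol in the platform annotation. That gave 22 of 45101 probe sets, 8 for the Id genes and 14 for the E-protein genes, and no probe set with several symbols named a member. The data comprised 2 Affymetrix arrays, 1 of skeletal muscle dissected from the diaphragm of a wild-type embryo or embryos (RP58+/+) and 1 of the same muscle from RP58 knockout (RP58-/-), both of strain C57/BL6 at E18.5, shortly before birth. The labels do not say how many embryos each RNA came from or how the knockout allele was made. RP58, now named Zbtb18, is a zinc finger repressor of transcription, and the labels name no tissue to which its loss was restricted.

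Muscle differentiation is driven by basic helix-loop-helix (bHLH) factors of the MyoD family. They bind E-box sequences as dimers with an E protein, a bHLH factor made in most cell types. Id proteins have the helix-loop-helix but lack the basic region that touches DNA, so an E protein held by an Id protein cannot bind its site, and in cultured myoblasts Id genes fall as differentiation begins. RP58 is known to repress Id2 and Id3 in muscle cells, which makes the Id genes and the E proteins they hold the comparison of interest here. Bone morphogenetic proteins (BMPs), acting through Smad factors, are known inducers of Id genes.

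Promoters are shown for Id2 and Id3, the reported targets of RP58, and for Id4, the Id gene whose signal differed least. Each runs from 250 bases before to 50 bases after the RefSeq start site (GRCm38.p6), in the direction of the gene. Capitals mark each match, on either strand, to the core of the RP58 binding site (ACATCTG), to the E-box (CANNTG) or to GGCGCC, a GC-rich element that BMP-activated Smads can bind. The RP58 core holds CATCTG, so each of its matches would also be an E-box.
Id3 (chr4:136143572-136143871, plus strand): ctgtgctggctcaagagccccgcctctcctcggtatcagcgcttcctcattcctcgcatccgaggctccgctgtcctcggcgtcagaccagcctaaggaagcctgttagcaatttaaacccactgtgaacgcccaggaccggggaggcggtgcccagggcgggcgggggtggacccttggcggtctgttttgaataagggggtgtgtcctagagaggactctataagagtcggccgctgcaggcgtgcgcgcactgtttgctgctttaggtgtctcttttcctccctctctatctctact
Id2 (chr12:25096043-25096342, minus strand): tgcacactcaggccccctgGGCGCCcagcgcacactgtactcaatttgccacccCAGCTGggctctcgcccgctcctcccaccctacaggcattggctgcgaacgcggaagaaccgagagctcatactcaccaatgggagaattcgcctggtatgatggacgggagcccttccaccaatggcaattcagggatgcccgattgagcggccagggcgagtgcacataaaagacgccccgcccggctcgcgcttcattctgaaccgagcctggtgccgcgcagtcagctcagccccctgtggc
Id4 (chr13:48260866-48261165, plus strand): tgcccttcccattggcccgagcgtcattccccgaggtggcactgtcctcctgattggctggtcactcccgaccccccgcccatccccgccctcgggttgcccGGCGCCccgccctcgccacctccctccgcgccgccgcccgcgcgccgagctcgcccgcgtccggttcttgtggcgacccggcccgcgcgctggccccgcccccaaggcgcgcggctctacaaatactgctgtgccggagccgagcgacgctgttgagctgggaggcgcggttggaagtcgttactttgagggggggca

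None of the 7 promoter windows of Id2, Id3, Id4, Tcf3 and Tcf12 held ACATCTG, a sequence found in 4.43% of all 32851 windows of this length. The Id2 window held 1 E-box, CAGCTG, starting 196 bases before the start site, and 1 GGCGCC starting 231 bases before it. The Id4 window held GGCGCC starting 148 bases before the start and no E-box. The Id3 window held none of these motifs. E-boxes were present in 72.3% of all windows and GGCGCC in 11.9%. These are matches of letters in short windows only, and sites farther from the start were not searched.

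The measure is the difference of the deposited log2 signals, knockout minus wild type. With 1 array per genotype there is no spread between embryos, and no test was possible. A probe set or gene was counted as higher or lower at 1.5-fold or more (0.58 on the log2 scale). Probe sets with a mean signal below the 40th percentile of the array (log2 5.52) were set apart as dim, which left 18 of the 22. The brightest probe set stands for a gene in counts, and all others are given too. The only repeat available is that between probe sets of a gene, whose differences had a pooled SD of 0.28 over 5675 genes. It covers neither embryos nor dissection.

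Several facts of the arrays bear on every value. Zbtb18 itself was at 8.91 on the wild-type-labelled array and 9.21 on the knockout-labelled array, so its single probe set did not check the labels and every direction given here rests on them, and the labels do not say where it lies relative to the deleted part. Sex-linked genes differed as well, with Xist at 11.47 and 6.96 and the Y-linked Eif2s3y at 3.59 and 8.58, respectively, so the samples differ in sex-linked signal as well as in label, and these cannot be told apart. The 24 poly-A spike-in probe sets were all lower on the knockout-labelled array, by a median of 0.75. Differences here are relative to the median gene (-0.003), and scaling to the spike-ins would raise every one by that amount, giving 9990 higher and 182 lower genes in place of 540 and 918. Of the markers above the floor, 11 of 12 for skeletal muscle were lower on the knockout-labelled array. Higher were 7 of 11 for liver, 3 of 5 for lung, 4 of 8 for mesothelium and 5 of 12 for leukocytes. Among all genes above the floor 3.83% were higher and 6.51% lower. In bulk tissue, fewer cells of a type and less RNA per cell cannot be told apart.

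Id3 and Id1 were higher on the knockout-labelled array, one probe set of Id2 was higher and Id4 was near 0, while Tcf4 was lower, all relative to the median gene. By brightest probe set, 2 of the 4 Id genes were higher and 0 lower, where 3.83% of 14093 genes above the floor were higher. Of the 3 E-protein genes, 1 was lower and 0 higher, where 6.51% of genes were lower. By probe set, 3 of 7 Id probe sets above the floor were higher, against 3.35% of 23061 probe sets. Of 11 E-protein probe sets 3 were lower, against 6.49%, and all 3 belong to Tcf4, so they are repeat readings of 1 gene. The median difference was 0.46 over the Id genes and -0.36 over the E-protein genes. The latter is the value of Tcf12, which lies between Tcf4 at -0.67 and Tcf3 at 0.40. Scaling to the spike-ins adds the same 0.75 to both medians (1.21 and 0.39) and to that of all genes (0.74), so it moves the line of no difference and not the order of the genes.

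**Figure D1:**
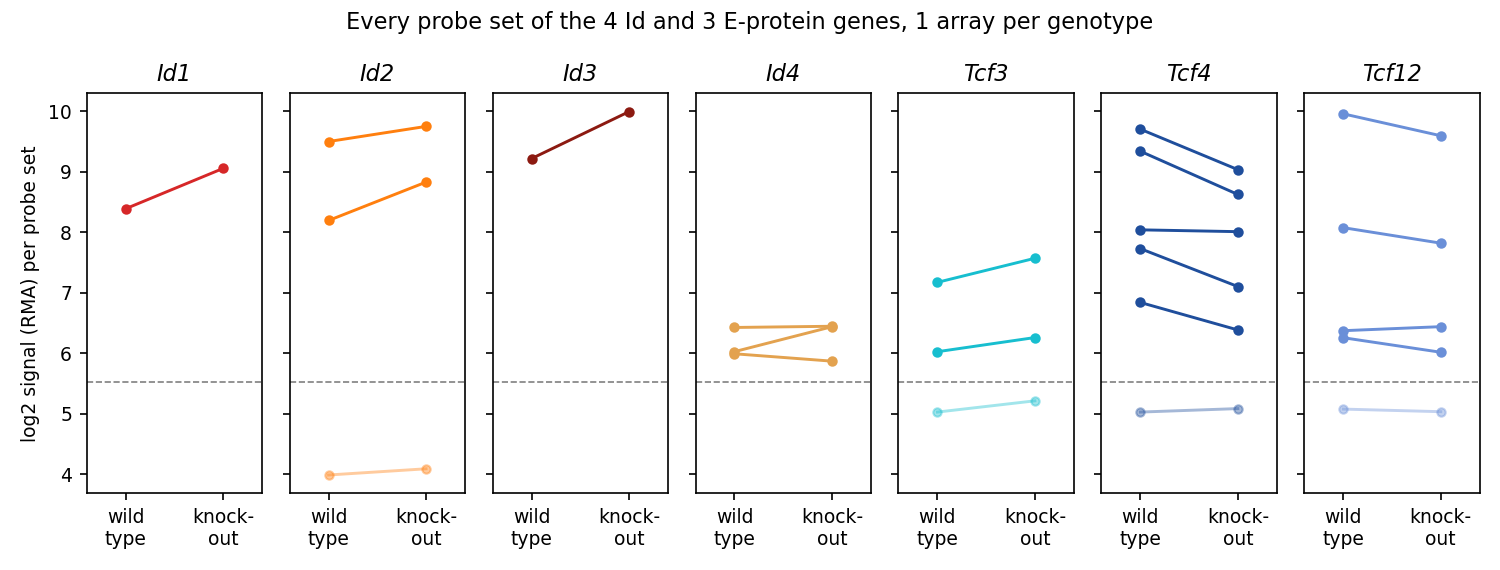
The log2 signal of every member probe set (y axis) on the wild-type and the knockout-labelled array (x axis), 1 panel per gene; a line joins the values of 1 probe set, the dashed line is the floor at 5.52 and pale points are dim probe sets. Id1 and Id3 have 1 line each, both sloping up to the knockout-labelled array, whereas 4 of the 5 Tcf4 lines above the floor slope down and 1 is flat; signals are as deposited, and scaled to the spike-ins the brightest Tcf4 probe set is at 0.08.

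Id3 had the largest difference of the members. Its single probe set read 9.22 on the wild-type-labelled array and 9.99 on the knockout-labelled array. The difference of 0.78, or 1.71-fold, placed Id3 255th from the top among 14093 genes. Id3 is made in many progenitor and endothelial cells and is induced by BMPs.

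Id1, the founding member of the family, was also higher. Its single probe set was at 8.39 on the wild-type-labelled array and 9.05 on the knockout-labelled array. This is a difference of 0.67, or 1.59-fold, and rank 388 from the top. Neither Id1 nor Id3 had another probe set, so the size of their differences has no second reading on these arrays. The Id1 probe set is of the _a_at kind, whose probes can match several transcripts of a gene.

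Id2 was read by 3 probe sets that differed in size but not in direction. The brightest was at 9.50 on the wild-type-labelled array and 9.75 on the knockout-labelled array, a difference of 0.25, or 1.19-fold, which is inside the SD between probe sets. The next read 8.19 and 8.83, a difference of 0.63, or 1.55-fold, and passed the size rule. The third was dim on both arrays, at 3.99 and 4.09. Whether Id2 counted as higher thus turned on the probe set, and the mean of both bright probe sets was 0.44.

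Id4 showed no common direction. Its 3 probe sets, which share 1 accession in the annotation, read 6.43, 6.03 and 5.99 on the wild-type-labelled array and 6.45, 6.44 and 5.87 on the knockout-labelled array. The differences were 0.02, 0.41 and -0.12, and the brightest turned to -0.0004 with median centring and -0.0062 with loess centring. None reached 1.5-fold, and the signals lay within about a unit of the floor. Id4 is known mainly from the nervous system, mammary gland and testis.

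Tcf4 (E2-2) was the E-protein gene with the largest difference, and the lower signal was shared by most of its probe sets. The brightest read 9.70 on the wild-type-labelled array and 9.03 on the knockout-labelled array, a difference of -0.67 (1.59-fold lower, rank 708 from the bottom). A second bright probe set went from 9.34 to 8.62 between the arrays, a difference of -0.71. Another, which shares its accession with the brightest, went from 7.73 to 7.10, a difference of -0.63. These 3 passed the size rule, and 1 more, at 6.84 and 6.38, was lower by 1.37-fold without passing it.

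The remaining Tcf4 probe sets did not share this difference. One of the _x_at kind, in which some probes can also match other sequences, read 8.04 and 8.01, a difference of -0.03. The last was dim, at 5.03 and 5.09. The mean over the 5 probe sets above the floor was -0.50, short of the size rule, and scaled to the spike-ins the brightest stood at 0.08.

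Tcf12 (HEB), an E protein with a known part in myogenesis, stayed short of the size rule, with its brighter probe sets below 0. The brightest was at 9.96 on the wild-type-labelled array and 9.59 on the knockout-labelled array, a difference of -0.36, or 1.29-fold. The next read 8.07 and 7.82, and the others above the floor had differences of -0.24 and 0.07. The dim one was at 5.08 and 5.03. No Tcf12 probe set reached 1.5-fold. Both bright ones are of the _a_at kind, and without that kind the gene stood at 0.07. Scaled to the spike-ins it stood at 0.39.

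Tcf3 encodes E12 and E47, the best known E proteins, and also stayed short of the size rule, on the other side of 0. Its brightest probe set was at 7.17 on the wild-type-labelled array and 7.57 on the knockout-labelled array, a difference of 0.40, or 1.32-fold. The other 2 probe sets share 1 accession. They read 6.03 and 6.26, and 5.03 and 5.21, the latter dim. All 3 differences were above 0 and none reached 1.5-fold. Tcf3 thus differed in sign from Tcf4 and Tcf12 as deposited. Scaling to the spike-ins adds the same amount to all 3 genes, so it puts each above 0 and leaves the distances between them as they are.

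**Figure D2:**
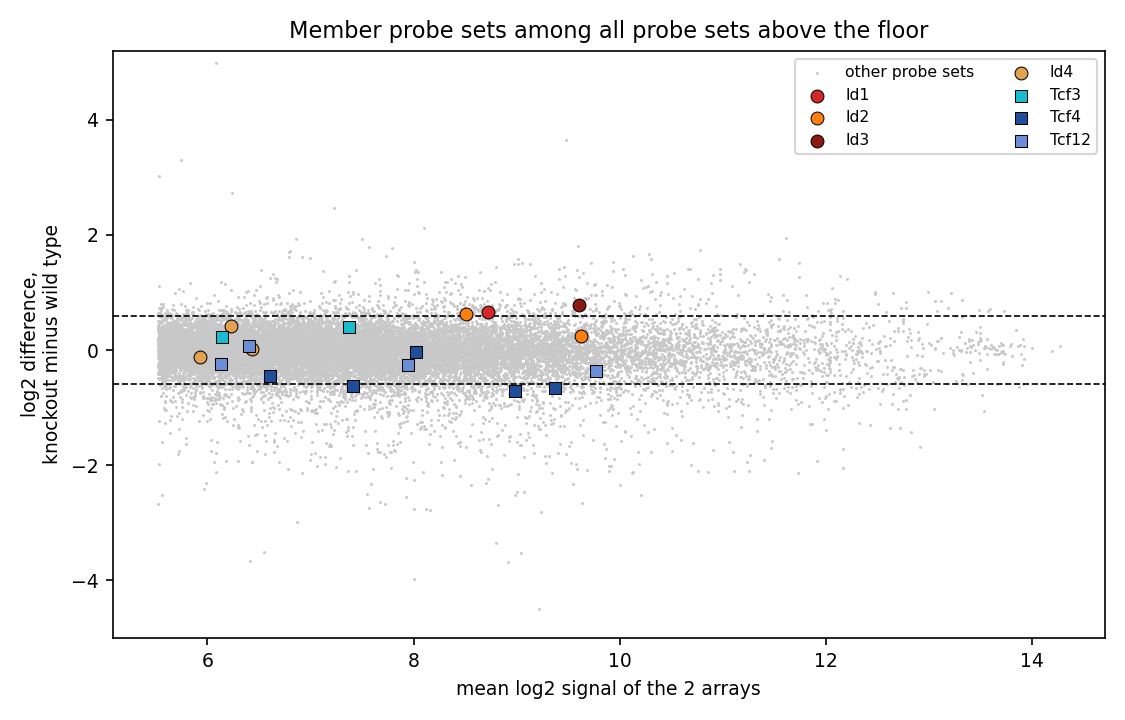
Log2 difference, knockout minus wild type (y axis), against the mean log2 signal of both arrays (x axis) for 23061 probe sets with 1 symbol above the floor (grey), with Id probe sets as circles and E-protein probe sets as squares; dashed lines mark 1.5-fold. Id1, Id3 and 1 Id2 probe set lie above the upper line and 3 Tcf4 probe sets below the lower one, all close to the lines, whereas the farthest points are those of the sex-linked genes Eif2s3y (4.99) and Xist (-4.51); scaled to the spike-ins every point would shift up by 0.75.

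Among the bHLH factors that pair with E proteins, the lower signals by brightest probe set were those of Myf6 and Myf5. Of 37 factors listed, 36 had a probe set and 23 were above the floor. Their median difference was -0.01, and 0 were higher and 2 lower, a share near the 6.51% of all genes. The count was 1 with the floor at the 60th percentile and 3 without _s_at, _x_at and _a_at probe sets. Myf6 (MRF4), the MyoD family factor of mature fibres, was at 10.24 on the wild-type-labelled array and 7.78 on the knockout-labelled array. Myf5, the factor of early myoblasts, was at 7.04 and 5.10, so it passed the floor only through the wild-type-labelled array. Myod1 (7.25 and 7.07) and Myog (9.13 and 9.22), which start differentiation, had differences of -0.18 and 0.09. By brightest probe set the other 19 ran from -0.42 for Msc (musculin), a repressor that competes with MyoD for E-boxes, to 0.39 for Tcf23. Tcf23, at 5.39 and 5.79, passed the floor only through the knockout-labelled array. Scx stood at -0.29 among the 19, and its other probe set, also above the floor, was at -0.68, past the size rule.

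Muscle genes with E-boxes through which MyoD and E proteins act were lower in part. The median difference of the 14 above the floor was -0.75, with 8 lower and 0 higher, where 6.51% of all genes were lower. At 2-fold 4 were lower, where 326 of all 14093 genes were lower. Scaled to the spike-ins 4 were lower and 3 higher, where 182 of all genes were lower and 9990 higher. The lowest were fast troponin I (Tnni2, -1.69), Mybph (-1.60), which encodes a myosin-binding protein, and muscle creatine kinase (Ckm, -1.42). The acetylcholine receptor genes Chrna1 and Chrnb1 were each at -0.86, and the myosin light chain gene Myl1 was at -0.64. The receptor genes Chrnd (0.05) and Chrng (-0.02) stayed near 0. Other genes of the muscle fibre were lower too: 11 of 12 skeletal muscle markers were lower by the size rule and their median was -1.41. Des was counted as lower by its brightest probe set (-1.40), while its other probe set, also above the floor, was at 0.27. Ckm and Des stand in both lists, and whether the targets differ from other muscle genes was not tested. Scaled to the spike-ins the target list's median was -0.0001, where that of all genes was 0.74.

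The BMP-Smad list mixed ligands, receptors and Smads that induce Id genes with antagonists, inhibitory Smads and other targets, so its median is not a value for the inducers alone. The floor left 27 of 34 genes, whose median was -0.01. Of these, by brightest probe set, 1 was higher and 1 lower, near or below the shares of all genes (3.83% higher and 6.51% lower). The 3 probe sets of Bmpr2, 2 of them above the floor, disagreed, with differences from -0.42 to 0.67 and the brightest at -0.04. Without _s_at, _x_at and _a_at probe sets 1 was higher and 0 were lower. The higher one was Hamp, the liver hormone hepcidin, itself a BMP target, at 6.53 on the wild-type-labelled array and 8.46 on the knockout-labelled array. The lower one was Hjv (hemojuvelin), a BMP co-receptor of muscle and liver, at 10.02 and 8.55, which is 2.77-fold lower. The inhibitory Smads, other targets of the pathway, were divided, with Smad6 at 0.36 and Smad7 at -0.20. Bambi and the BMP-binding Bmper were at 0.40 and 0.56, and Bmp2 and Bmp4 were at -0.54 and -0.13. Liver markers were higher on the same array beside Hamp.

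The bHLH factors of the Hes and Hey families, many of them repressors downstream of Notch, were listed with the related Bhlhe40. Of these, 0 of 7 above the floor passed the size rule in either direction. Their median was 0.02, with a range from -0.19 to 0.22. Cofactors of E proteins and their partners showed 0 of 10, with a median of 0.04. The members of that list farthest from 0 were Ldb1 (0.53) and Lmo4 (0.43), both LIM-domain adaptors, and Runx1t1 (-0.29), a corepressor. Over all genes 3.83% were higher and 6.51% lower, with a median of -0.003. At those shares lists of 7 and 10 genes can hold 0 past the rule.

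**Figure D3:**
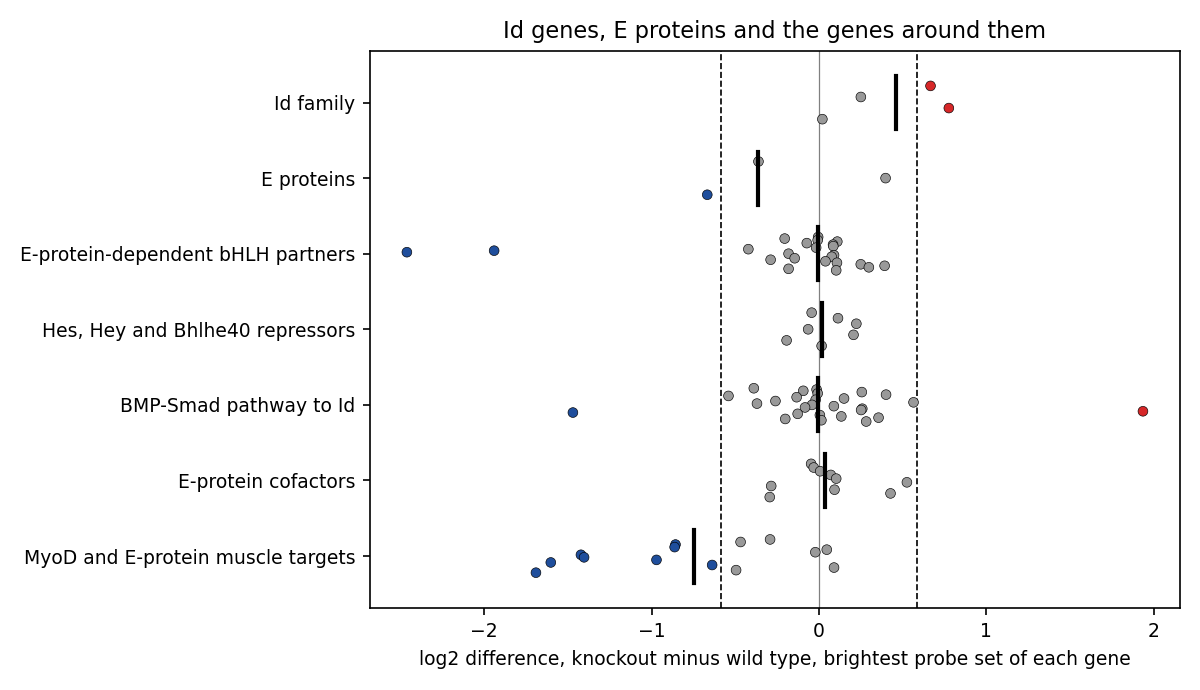
Log2 difference, knockout minus wild type, at the brightest probe set (x axis) of each gene above the floor, by list (rows); red and blue points passed the 1.5-fold rule (dashed lines) and black bars are medians. Id1, Id2 and Id3 sit right of 0 and Id4 on it, only the muscle target list has a median beyond -0.58, and the partner and BMP lists are centred on 0 with Myf6, Myf5, Hjv and Hamp apart; scaled to the spike-ins all points would shift right by 0.75.

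Some markers of other cell types that a diaphragm sample could hold were higher beside the Id genes. Over all genes above the floor 3.83% were higher and 6.51% lower. Liver markers had 7 of 11 higher and 0 lower, and a median level of 12.71 on the wild-type-labelled array and 13.61 on the knockout-labelled array. Their first 2, albumin (Alb) at 14.23 and 14.30 and alpha-fetoprotein (Afp) at 13.81 and 14.01, stayed within the size rule. Lung epithelium markers had 3 of 5 higher, led by Sftpc at 7.65 and 11.30, with Sftpb at 7.32 and 7.44. Mesothelium markers had 4 of 8 higher, with Msln at 9.88 and 10.51 and Upk3b at 11.69 and 12.38. Leukocyte markers had 5 of 12 higher, with Ptprc at 8.48 and 8.57 and Cd68 at 6.61 and 7.11. The medians of these differences were 0.82, 0.59, 0.60 and 0.49, beside 0.46 for the Id genes. The log2 of the signal summed over each list was 16.46 for liver on the wild-type-labelled array and higher by 0.54 on the other. It was 9.10 and 11.56 for lung, 13.03 and 13.66 for mesothelium, and 14.47 and 14.95 for leukocytes. Sftpc, at 11.30, made up most of the lung sum on the knockout-labelled array. That value comes from 1 probe set, and the other Sftpc probe set, which was dim, differed by 0.57. The part of these cell types in the Id differences was not tested.

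Markers of endothelium, in which Id1 and Id3 are known to be made, lay on both sides of 0. The part of endothelium in the Id differences was not tested. The median of 11 endothelial markers above the floor was -0.14, with a summed signal of 11.21 and 11.25 (log2). By the size rule 0 were higher and 1 was lower, where 3.83% of all genes were higher and 6.51% lower. Counts of 0 or 1 in lists this short, here and in the next lists, do not stand apart from those shares. Pecam1 was at 6.64 on the wild-type-labelled array and 6.20 on the knockout-labelled array, and Cdh5 at 7.52 and 7.19. Differences were above 0 for 5 of the 11, among them Egfl7 (0.36) and Esam (0.34), and the lower one was Cldn5 (-0.69). Connective tissue markers, with Col1a1 at 11.66 and 12.07 and Col1a2 at 13.47 and 13.66, had 1 of 11 higher (Osr1, 1.04) and 1 lower (Prrx1, -1.10) and a median of 0.05. Differences were above 0 for 7 of them and below 0 for 4, and the probe sets of Prrx1 disagreed, with differences up to 0.40. Smooth muscle and pericyte markers, with Myh11 at 5.89 and 6.57 and Acta2 at 10.94 and 10.93, had 1 of 8 higher and a median of 0.05. Schwann cell markers had 0 of 4 past the rule and a median of 0.36, with Sox10 at 7.66 and 7.79 and Mbp at 8.21 and 8.62. The 8 probe sets of Mbp, 5 of them above the floor, disagreed, with differences from 0.06 to 1.72. Skeletal muscle itself was plainly present on both arrays, with skeletal actin (Acta1) at 13.95 and 13.36 and Ckm at 13.53 and 12.11. No marker stood at 0 on either array, since the values do not reach 0 for any probe set, with a minimum of 2.90.

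**Figure D4:**
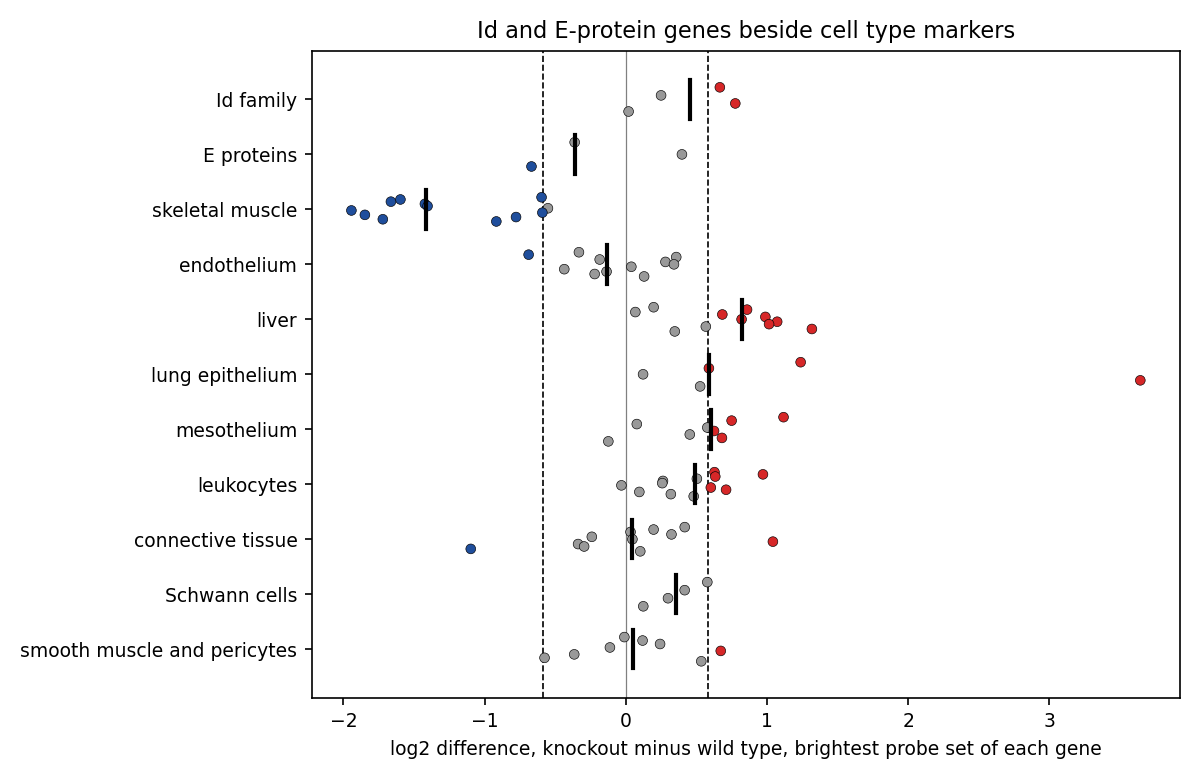
Log2 difference, knockout minus wild type, at the brightest probe set (x axis) of Id and E-protein genes and of markers of 9 cell types (rows), drawn with the same colours, dashed lines and median bars as the plot of pathway lists. Id1 and Id3, at 0.67 and 0.78, fall within the range of the liver, lung, mesothelium, leukocyte and connective tissue markers. Id1 also falls within that of the smooth muscle and pericyte markers, and endothelial markers reach 0.36 with a median of -0.14. Scaled to the spike-ins all points would shift right by 0.75.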

How the data were processed

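The values are log2 signals per probe set that the authors computed with RMA (background correction, quantile normalisation and probe summary), per the series' design text, with Affymetrix Expression Console 1.1 named in the submitters' processing notes. RMA gives no detection call, compresses dim and very bright signals and removes any difference in total mRNA. The labels do not say which arrays were normalised together. The design text names the 430A 2.0 array, while the deposited probe sets were named through the annotation of a larger array of that family. All 22 member probe sets had an Entrez identifier that led to the same symbol in RefSeq, so Tcf3 and Tcf4 are the E-protein genes and not Tcf7l1 and Tcf7l2, which have carried those names.

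Differences, counts and medians were computed in Python 3.11.15 with pandas 2.3.3, and the functions were tested on simulated data. There were 7 pathway lists and 9 marker lists. Named were all members, the 4 MyoD family genes, pathway list genes past the size rule (above 6, the 3 highest and 3 lowest) and the first 2 measured markers of each marker list. Other genes (Xist, Eif2s3y, Msc, Tcf23, Scx, Chrnd, Chrng, Des, Smad6, Smad7, Bambi, Bmper, Bmp2, Bmp4, Bmpr2, Ldb1, Lmo4, Runx1t1, Egfl7, Esam, Cldn5, Osr1, Prrx1) were named after their values were seen. Members and lists were chosen with earlier results of these data known. Genes were not ranked by likeness of pattern, since 2 arrays give 1 difference per gene. The alternatives were the mean or median over probe sets, no floor, a floor at the 60th percentile, median and loess centring (fraction 0.3), leaving out _s_at, _x_at and _a_at probe sets, and a 2-fold rule, with scaling to the poly-A spike-ins added after seeing the data.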

Additional observations from a re-analysis of the deposited data

How the results depend on the processing

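At 2-fold, 0 Id genes were higher and 0 E-protein genes lower, against 128 higher and 326 lower among all genes. Without _s_at, _x_at and _a_at probe sets only Id3 and Id4 of the Id genes could be read, of which 1 was higher, and the E-protein median was 0.067. With the mean over probe sets, or their median without a floor, 0 E-protein genes were lower, since Tcf4 then stood at -0.50 or -0.54. Scaled to the poly-A spike-ins, which was added after seeing the data, 4 Id genes were higher and 0 E-protein genes lower, the medians were 1.21 and 0.39, and Tcf4 was at 0.080. That scaling adds the same amount to every gene, and 9990 of 14093 genes were then higher and 182 lower, with a median of 0.74, so these counts set no member apart. Without a floor, with the floor at the 60th percentile (where Id4 dropped out), and with median or loess centring, the counts of 2 Id genes higher and 1 E-protein gene lower did not change. With 1 array per genotype no replicate could be left out. RMA gives no call of detection.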
